A study of Mus musculus with 8 samples.

Results

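The dorsal excitatory identity factors described here are 9 transcription factor genes, Lmx1b, Tlx3, Maf, Mafa, Rora, Rorb, Sox5, Rreb1 and Satb1. They were chosen by name from the 19787 genes of a matrix of unique molecular identifier (UMI) counts, in which all 9 were found. The matrix holds 12447 nuclei in 8 libraries, all taken from wild-type mice of the C57BL/6 strain at the low thoracic level of the cord. Uninjured cords gave traced nuclei, which carried GFP from a tracer in neurons that project to the lumbar cord (2 libraries), and untraced nuclei without GFP from the same replicates (2 libraries). A second experiment compared cords after a hemisection, in which natural repair took place (2 libraries), with an uninjured cord (1 library). Another experiment gave regenerating neurons, also sorted by GFP, in 1 library. The labels give no age, no time after injury and no name for the tracer, and they do not say how many animals a library pools. The uninjured and regenerating groups have no replicate, and p-values measure only the spread between libraries, which may be technical in part.

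Excitatory neurons of the dorsal horn relay touch, itch, pain and temperature. Their fate is set in the embryo by homeodomain proteins, among which Tlx3 favours a glutamatergic over a GABAergic fate and Lmx1b maintains it. Maf, Mafa, Rora and Rorb are known from subsets of dorsal neurons in the mouse, and several members give the deposited subtypes their names. Some are known outside neurons too, Rora and Rorb in astrocytes, Maf in microglia and Sox5 in oligodendrocyte precursors (OPC).

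The deposited annotation puts 4076 of the nuclei in neurons, with 28 subtypes in 11 families by the first part of their names. The 10 subtypes whose names begin with DE, read here as dorsal excitatory, hold 47.1% of the neurons, and 4 subtypes begin with DI, read as dorsal inhibitory. Their markers went with these names. Slc17a6, the vesicular glutamate transporter of the cord, lay between 130 and 241 CPM (counts divided by the summed UMIs of the nuclei and scaled to 1e+06) in DE neurons of each library and at or below 15.8 CPM in DI neurons. The 4 inhibitory markers Gad1, Gad2, Slc32a1 and Slc6a5 summed to at most 50.7 CPM in DE neurons and to at least 416 CPM in DI neurons. Neurons numbered 25 to 2148 per library, with 135012 to 20739862 UMIs in sum. They were 89.6% of the nuclei of hemisection library 1, 7.15% of hemisection library 2 and 32.4% of the uninjured library. The reason for this difference, also between the 2 hemisection libraries, was not tested. Median depth per neuron lay between 5767 and 16489.5 UMIs, except in the regenerating library, where it was 488. Of 7716 barcode sequences, 4 occurred in more than 1 library. A further 4727 nuclei carry no barcode sequence. They are all 238 nuclei of the regenerating library and 4489 nuclei of the uninjured library, which are all of its non-neuronal nuclei and none of its neurons. The sources used here do not say whether these nuclei came from another preparation.

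Promoter sequences are shown for Lmx1b and Tlx3, the pair of members whose levels over the subtypes were most alike. RefSeq (GRCm38.p6) gives promoter windows, 250 bases before to 50 after a transcript start, for 7 of the 9 members. Capitals mark matches to TAATTA, a homeodomain core, AGGTCA, the ROR core, or TGCTGA, a Maf core, searched on both strands. The Lmx1b window is chr2:33641049-33641348 on the minus strand and the Tlx3 window is chr11:33203539-33203838 on the minus strand. Each is the only window given for its gene. That of Tlx3 holds the start of the GENCODE gene, while that of Lmx1b lies wholly upstream of the GENCODE gene, since the RefSeq start differs.
Lmx1b: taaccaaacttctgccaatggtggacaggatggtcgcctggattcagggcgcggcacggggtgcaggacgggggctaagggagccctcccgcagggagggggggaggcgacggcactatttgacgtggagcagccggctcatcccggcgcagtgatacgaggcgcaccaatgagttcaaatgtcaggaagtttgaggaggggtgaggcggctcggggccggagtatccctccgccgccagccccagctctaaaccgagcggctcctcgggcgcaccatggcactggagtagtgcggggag
Tlx3: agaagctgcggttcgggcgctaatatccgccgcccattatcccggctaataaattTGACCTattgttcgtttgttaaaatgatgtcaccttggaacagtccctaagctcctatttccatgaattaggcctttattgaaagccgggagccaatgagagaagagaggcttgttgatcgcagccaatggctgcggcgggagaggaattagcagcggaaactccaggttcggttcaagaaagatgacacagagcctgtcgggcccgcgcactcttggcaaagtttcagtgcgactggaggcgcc
The Lmx1b window held none of the motifs. The Tlx3 window held AGGTCA on the opposite strand, written TGACCT, which overlapped no other motif. Of all 32851 promoter windows, 16.3% held AGGTCA, 5.29% held TAATTA and 19.5% held TGCTGA.

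The subtypes were clustered by the authors on the genes measured here, so the levels by subtype are a description and carry no test. Levels are given as the mean ± SD over libraries with at least 20 nuclei of a subtype, without the regenerating library, or from the summed counts of all libraries where they are called pooled. Shares of a factor's neuronal UMIs leave out the regenerating library as well. CPM is not divided by gene length, so levels of different genes are not compared.

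**Figure D1:**
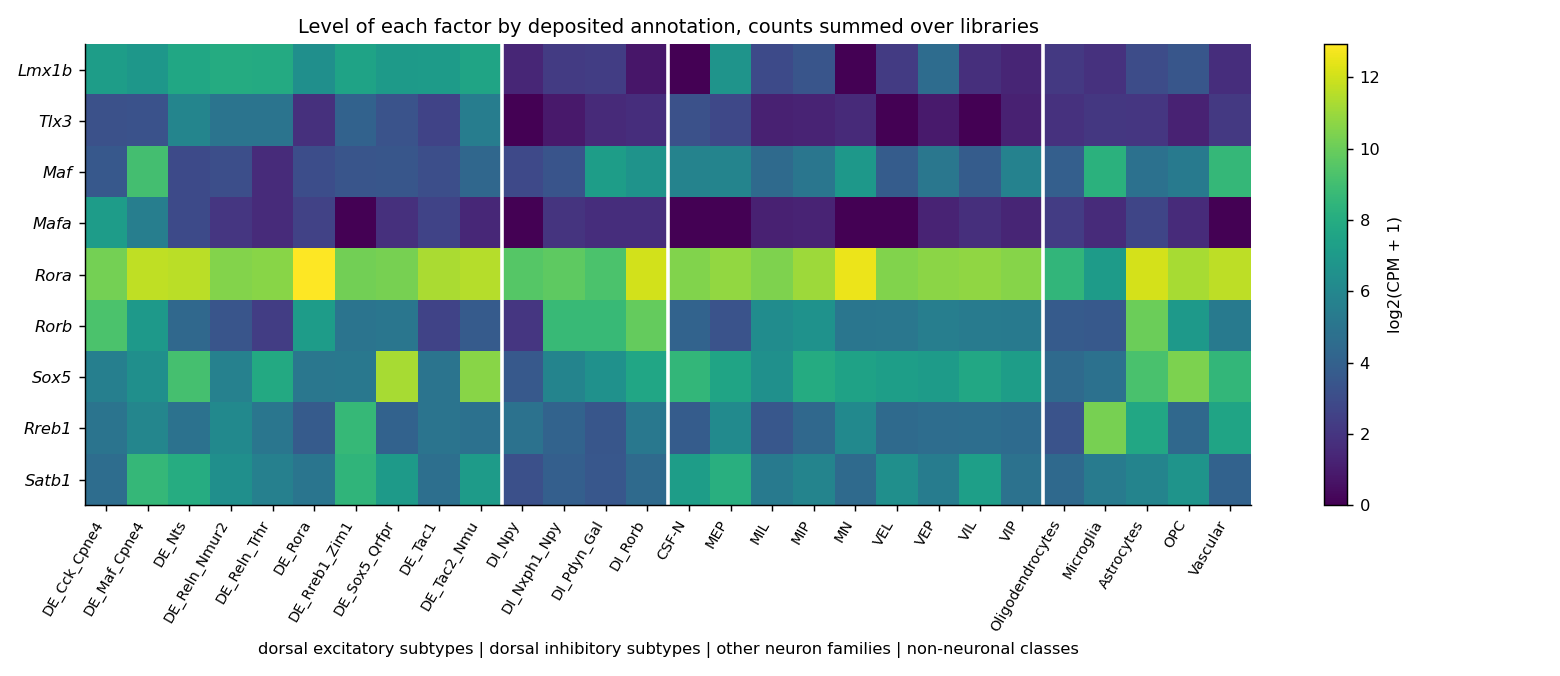
Heat map of the pooled level of each factor (rows) in 10 dorsal excitatory subtypes, 4 dorsal inhibitory subtypes, the other neuron families and the non-neuronal classes (columns), as log2(CPM + 1). Lmx1b was at 87.0 CPM or more in all 10 dorsal excitatory subtypes, while Maf, Mafa, Sox5 and Rreb1 each had 1 or 2 subtypes far above the others.

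Lmx1b, a LIM homeodomain factor (chr2:33560965-33640511 on the minus strand, GRCm38), was read in every DE subtype, from 87.0 pooled CPM in DE_Rora to 244 in DE_Reln_Nmur2. In the DI subtypes it was at most 4.17 pooled CPM. DE neurons gave 91.5% of its neuronal UMIs. In DE_Reln_Nmur2 it stood at 236 ± 65.7 CPM (SD, n = 5 libraries) and in DE_Maf_Cpne4 at 112 ± 12.1 CPM (SD, n = 3). Outside DE, MEP_Lmx1b_Satb1, a subtype of 32 neurons named for it, had 104 pooled CPM. Along the order of the 15 subtypes with at least 2 such libraries, the ranges of 11 of 14 neighbours overlapped.

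Tlx3, a homeobox factor (chr11:33200752-33203589, minus strand), followed a similar order at few counts. Neurons of all libraries held 325 Tlx3 UMIs, and DE neurons gave 91.3% of those outside the regenerating library. DE_Nts had 64.4 ± 19.0 CPM (SD, n = 3), DE_Tac2_Nmu 50.2 ± 19.7 (SD, n = 3) and DE_Reln_Nmur2 33.6 ± 23.2 (SD, n = 5). The ranges of these and of all 14 pairs of neighbours overlapped, so the order of Tlx3 was not resolved between libraries. In DI subtypes it was at most 2.23 pooled CPM. Over the 25 subtypes with at least 30 nuclei, Lmx1b and Tlx3 had a Pearson r of 0.76 in pooled log2(CPM + 1), the highest of the 36 pairs of members. These subtypes share libraries and depth, and no p is given.

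The pair of large Maf proteins, leucine zipper factors, divided between fewer subtypes. Maf (chr8:115682942-115707794, minus strand) stood at 528 ± 75.5 CPM (SD, n = 3) in DE_Maf_Cpne4, which gave 58.1% of its neuronal UMIs from 10.2% of the neurons. The next level was 124 ± 44.8 CPM (SD, n = 3) in the inhibitory DI_Pdyn_Gal, with no overlap of the ranges. In the other 9 DE subtypes Maf was below 20 pooled CPM, as low as 2.03 in DE_Reln_Trhr. Motor neurons (MN) had 119 pooled CPM and VIP_V1_Mafa 130. Mafa (chr15:75745490-75748228, minus strand) was at 140 ± 4.09 CPM (SD, n = 2) in DE_Cck_Cpne4 and at 47.2 ± 5.19 CPM (SD, n = 3) in DE_Maf_Cpne4, whose ranges did not overlap. In VIP_V1_Mafa, the ventral inhibitory subtype that carries its name, the 54 neurons held 3 Mafa UMIs, or 5.21 pooled CPM.

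Rora and Rorb encode orphan nuclear receptors that bind DNA as monomers. Rora (chr9:68653786-69388246, plus strand) was read in every subtype, at 497 pooled CPM or more. Its highest pooled levels were 7805 CPM in DE_Rora, 6107 in motor neurons and 4183 in DI_Rorb. DE neurons, 47.1% of all neurons, gave 46.9% of its UMIs, a share that does not allow for depth per nucleus. In CPM, which does, the median pooled level was 2027 over the DE subtypes and 1533 over all other subtypes. Rorb (chr19:18930605-19111196, minus strand) had 20.7% of its neuronal UMIs in DE neurons. DI_Rorb had 936 ± 82.5 CPM (SD, n = 2), DE_Cck_Cpne4 589 ± 97.5 (SD, n = 2), DI_Pdyn_Gal 504 ± 112 (SD, n = 3) and DI_Nxph1_Npy 462 ± 221 (SD, n = 3). DI_Rorb lay above the next without overlap, and the 3 that followed overlapped. The fourth DI subtype, DI_Npy, had 3.17 pooled CPM.

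Sox5, an HMG-box factor of the SoxD group (chr6:143828425-144781977, minus strand), was highest in DE_Sox5_Qrfpr at 2473 ± 223 CPM (SD, n = 3), followed by DE_Tac2_Nmu at 1612 ± 214 (SD, n = 3) and DE_Nts at 620 ± 213 (SD, n = 3). These levels did not overlap with one another. The first of them gave 49.4% and the second 19.7% of the Sox5 UMIs of neurons. DE_Tac1, at 30.2 pooled CPM, was the lowest DE subtype.

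Rreb1, a zinc finger factor that binds Ras-responsive elements (chr13:37778400-37952005, plus strand), was highest in DE_Rreb1_Zim1 at 409 pooled CPM. Its level there differed between libraries. The 28 neurons of this subtype in the uninjured library held 36 UMIs, or 129 CPM. The 49 of hemisection library 1 held 256 UMIs, or 514 CPM, and the 4 of library 2 held 17 UMIs, or 259 CPM. In the 4 libraries of traced and untraced nuclei it lay between 458 and 698 CPM, from 1 to 7 neurons each. The uninjured library was thus the lowest of all 8. The ranges of all 14 pairs of neighbours in the order of Rreb1 overlapped. Within a library DE_Rreb1_Zim1 lay above DI_Rorb, the next in that order. The levels were 514 against 142 CPM in hemisection library 1 and 129 against 19.3 CPM in the uninjured library.

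Satb1, a chromatin organizer (chr17:51736187-51833290, minus strand), stood at 432 ± 106 CPM (SD, n = 3) in DE_Maf_Cpne4, 313 ± 123 (SD, n = 3) in DE_Nts and 296 ± 114 (SD, n = 2) in DE_Rreb1_Zim1, with overlapping ranges. MEP_Lmx1b_Satb1 had 287 pooled CPM. DE neurons gave 73.5% of its UMIs and the DI subtypes had at most 20.8 pooled CPM.

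Shares of nuclei with a UMI were compared after each nucleus was thinned to 2000 UMIs, which left out 116 of 1809 DE nuclei without the regenerating library. Lmx1b had a UMI in 27.0% of 1693 DE nuclei (95% exact interval 24.9% to 29.2%) and in 0.549% of 728 DI nuclei (upper bound 1.40%). Microglia, which lack this factor, gave 0.528% of 757 nuclei, close to the DI share. Before thinning, 7 of the 8 Lmx1b UMIs of microglia came from the uninjured library. Whether the DI share is background was not tested. Median depth before thinning was 7558, 9056.5 and 2663 UMIs in these sets. Tlx3 had a UMI in 4.49% of DE nuclei and in 0.275% of DI nuclei. Rorb had a UMI in 33.9% of DI nuclei and in 82.2% of 674 astrocytes. The intervals cover counting error only. Without thinning the Lmx1b share in DE was 59.1% and that of Tlx3 was 13.5%.

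**Figure D2:**
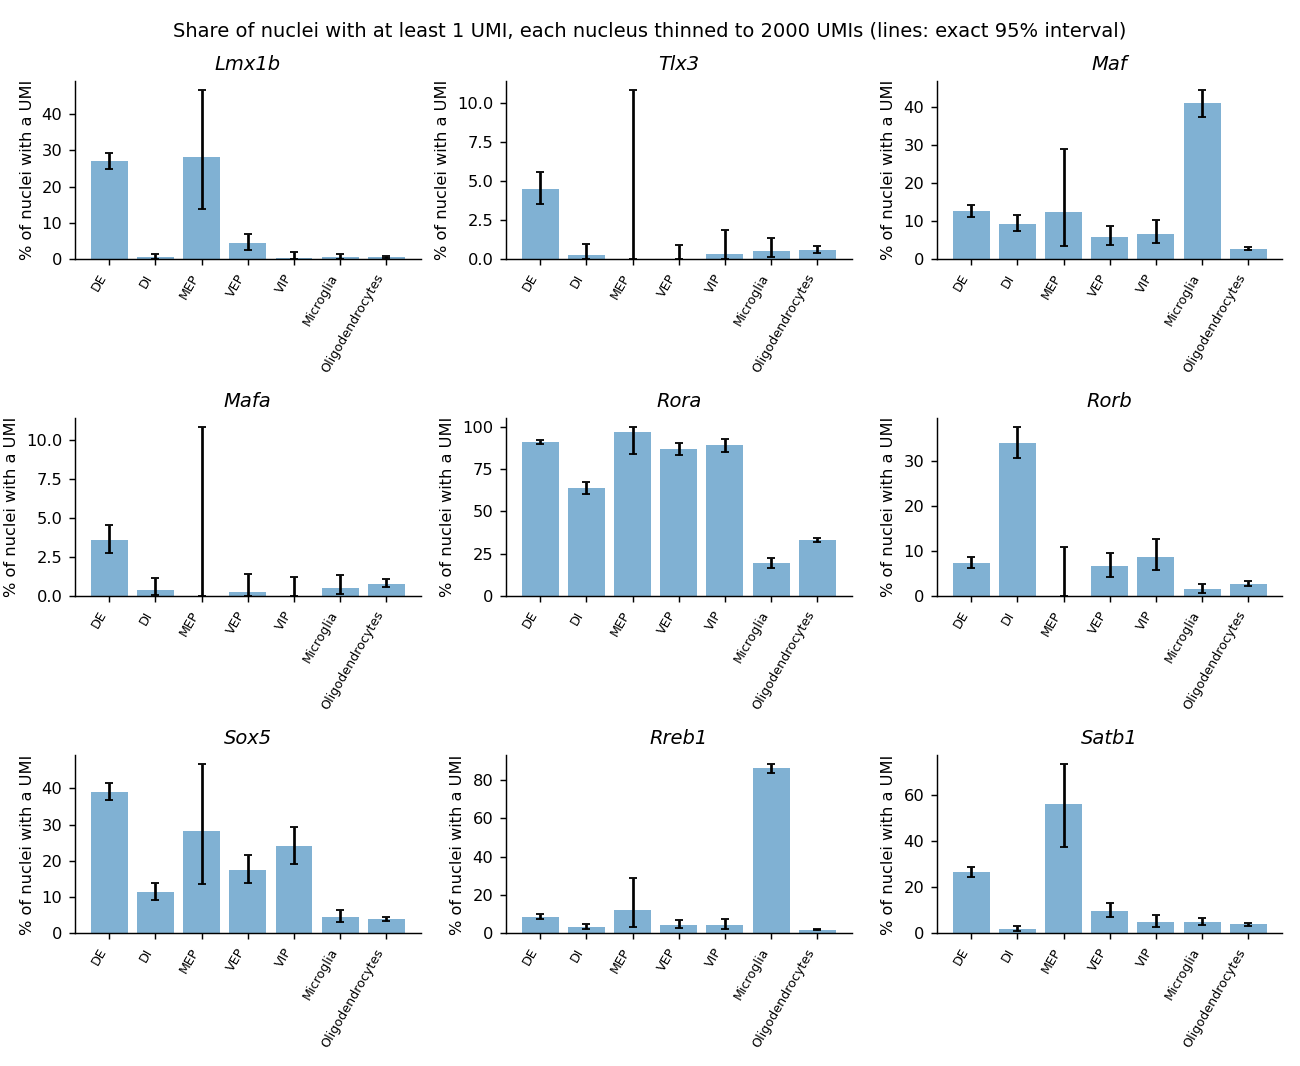
Percent of nuclei with at least 1 UMI of each factor, each nucleus thinned to 2000 UMIs, in 5 neuron families, microglia and oligodendrocytes; lines are exact 95% binomial intervals. Lmx1b was at 27.0% in dorsal excitatory (DE) neurons and at 28.1% in the 32 MEP neurons, Tlx3 at 4.49% in DE neurons, Rorb at 33.9% in dorsal inhibitory (DI) neurons and Rreb1 at 86.1% in microglia.

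Within thinned DE nuclei, 40.0% had a UMI of 2 of the 9 factors, 27.0% of 3 and 2.30% of 0. Maf and Tlx3 were not read together: 0 of the 215 nuclei with a Maf UMI had one of Tlx3, against 5.14% of the other DE nuclei. Tlx3 was read in only 76 of 1693 thinned DE nuclei, and 0 of the 149 nuclei with Rreb1 had it either. Before thinning, 25 of the 418 DE_Maf_Cpne4 nuclei held a Tlx3 UMI (8.56 pooled CPM). The 0 thus rests on few counts and does not show that the factors exclude each other. Satb1 was read in 47.4% of the nuclei with Maf and in 23.7% of those without. Sox5 was read in 13.0% of the nuclei with Maf and in 42.8% of those without. The nuclei share libraries, and the subtypes were clustered on these genes, so no test is given.

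Genes with the most similar pattern were named by a fixed rule, the Pearson r over 25 subtypes among 7085 genes that averaged 20 CPM or more. Cacna2d1, an auxiliary subunit of calcium channels, was nearest to Lmx1b (r = 0.87), followed by Tmem163 and Plxna2. Ptprn2 was nearest to Tlx3 (r = 0.85), Pak1 to Maf (0.70) and Noct to Mafa (0.73). Cck, the cholecystokinin gene, followed next for Mafa (0.73). S100b was nearest to Rora (0.67), Cacna2d3 to Rorb (0.74), Frrs1l to Sox5 (0.68), Acap2 to Rreb1 (0.64) and Nedd4l to Satb1 (0.74).

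Several factors were higher in non-neuronal classes than in most neurons. Rreb1 stood at 1297 ± 263 CPM (SD, n = 5 libraries) in microglia, against 51.2 ± 18.3 CPM (SD, n = 7) in neurons. Maf stood at 286 ± 91.5 CPM (SD, n = 5) in microglia and at 391 pooled CPM in vascular cells. Rora stood at 4548 ± 268 CPM (SD, n = 2) and Rorb at 1156 ± 197 CPM (SD, n = 2) in astrocytes. Sox5 stood at 1560 ± 371 CPM (SD, n = 4) in OPC. Lmx1b and Tlx3 were at most 10.0 pooled CPM in any non-neuronal class.

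Sox5 fell in traced neurons, and it was the only member called in the comparison of traced with untraced neurons, which asks which thoracic neurons project to the lumbar cord. Sox5 stood at 148 and 147 CPM in the neurons of traced libraries 1 and 2, and at 436 and 461 CPM in untraced libraries 1 and 2. The groups did not overlap. The log2 fold change was -1.66 (SE 0.194, adjusted p = 0.0011 in edgeR's quasi-likelihood test over 11601 genes). Of all genes tested 42 were called, or 0.362% (0.112% higher and 0.25% lower), and 1 of 9 members was. The median log2 fold change was -0.60 over the members and -0.0045 over all genes.

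The subtypes highest in Sox5 were few among traced neurons. DE_Sox5_Qrfpr and DE_Tac2_Nmu together held 3 of 80 and 2 of 25 traced neurons, against 65 of 354 and 16 of 123 untraced ones. Outside these subtypes Sox5 stood at 108 and 123 CPM in traced and at 114 and 133 CPM in untraced neurons. Without these subtypes, an alternative chosen after seeing the data, the log2 fold change was -0.16 (adjusted p = 0.959), and over all alternatives the adjusted p ran from 7.31e-12 to 0.959. Among DE neurons alone, with 30 and 9 traced nuclei, Sox5 was at 172 and 119 CPM against 871 and 780 CPM untraced, a log2 fold change of -2.47 (adjusted p = 0.000597). This fit keeps both subtypes and their difference in share. The traced level rests on few nuclei. In library 1, 1 DE_Sox5_Qrfpr nucleus gave 44 UMIs and 1 DE_Tac2_Nmu nucleus 21. In library 2, 1 DE_Tac2_Nmu nucleus gave 10. Oligodendrocyte markers, 5 genes of myelin, summed to 66.1 and 72.0 CPM in traced neurons, with 2 of the 5 at 0 in library 2, and to 194 and 218 CPM in untraced neurons. Their part in the result was not tested.

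Rorb was lower as well but did not pass the threshold. It stood at 62.7 and 6.00 CPM in traced and at 200 and 86.1 CPM in untraced neurons, with no overlap. The log2 fold change was -1.73 (SE 0.434, adjusted p = 0.117). A single traced nucleus gave 46 of the 93 Rorb UMIs of traced neurons. Without that nucleus Rorb was called, at -2.60 (adjusted p = 0.00796). In a fit of the 4 libraries of experiment 1 alone it was -1.95 (adjusted p = 0.000131) with the replicate number of the titles as a block and -1.74 (adjusted p = 0.146) without the block. Without traced replicate 1 the log2 fold change of Rorb was -4.72, which rests on 2 UMIs from 1 of the 25 neurons of traced library 2. Without untraced replicate 2 it was -2.09. Each of these fits leaves 1 library in a group. Over its alternatives the adjusted p of Rorb ran from 1.18e-09 to 1.00. The 4 subtypes highest in Rorb held 3 of 80 and 1 of 25 traced neurons, against 70 of 354 and 30 of 123 untraced.

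The remaining 7 members did not pass the test. Rreb1 stood at 59.2 and 81.0 CPM in traced and at 40.5 and 36.9 CPM in untraced neurons (log2 fold change 0.72, adjusted p = 0.384), without overlap. DE_Rreb1_Zim1, the subtype highest in Rreb1, held 4 of 80 and 2 of 25 traced neurons, against 7 of 354 and 1 of 123 untraced. Lmx1b stood at 51.7 and 33.0 CPM against 57.0 and 103 CPM (log2 fold change -0.78, adjusted p = 0.506), also without overlap. Without untraced replicate 1 it was called (-1.24, adjusted p = 0.0484), and over its alternatives the adjusted p ran from 0.0484 to 0.961. DE neurons, which gave most neuronal Lmx1b UMIs, made up 37.5% and 36% of traced and 54.5% and 57.7% of untraced neurons. Within DE neurons Lmx1b stood at 149 and 107 CPM in traced and at 125 and 207 CPM in untraced libraries, with overlap. Satb1, at 103 and 59.98 against 149 and 106 CPM, was lower in both traced libraries. Maf, at 90.9 and 78.0 against 73.3 and 123 CPM, and Rora, at 2262 and 2816 against 1617 and 2309 CPM, overlapped between the groups. Mafa and Tlx3 rested on 12 and 8 UMIs in traced neurons.

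**Figure D3:**
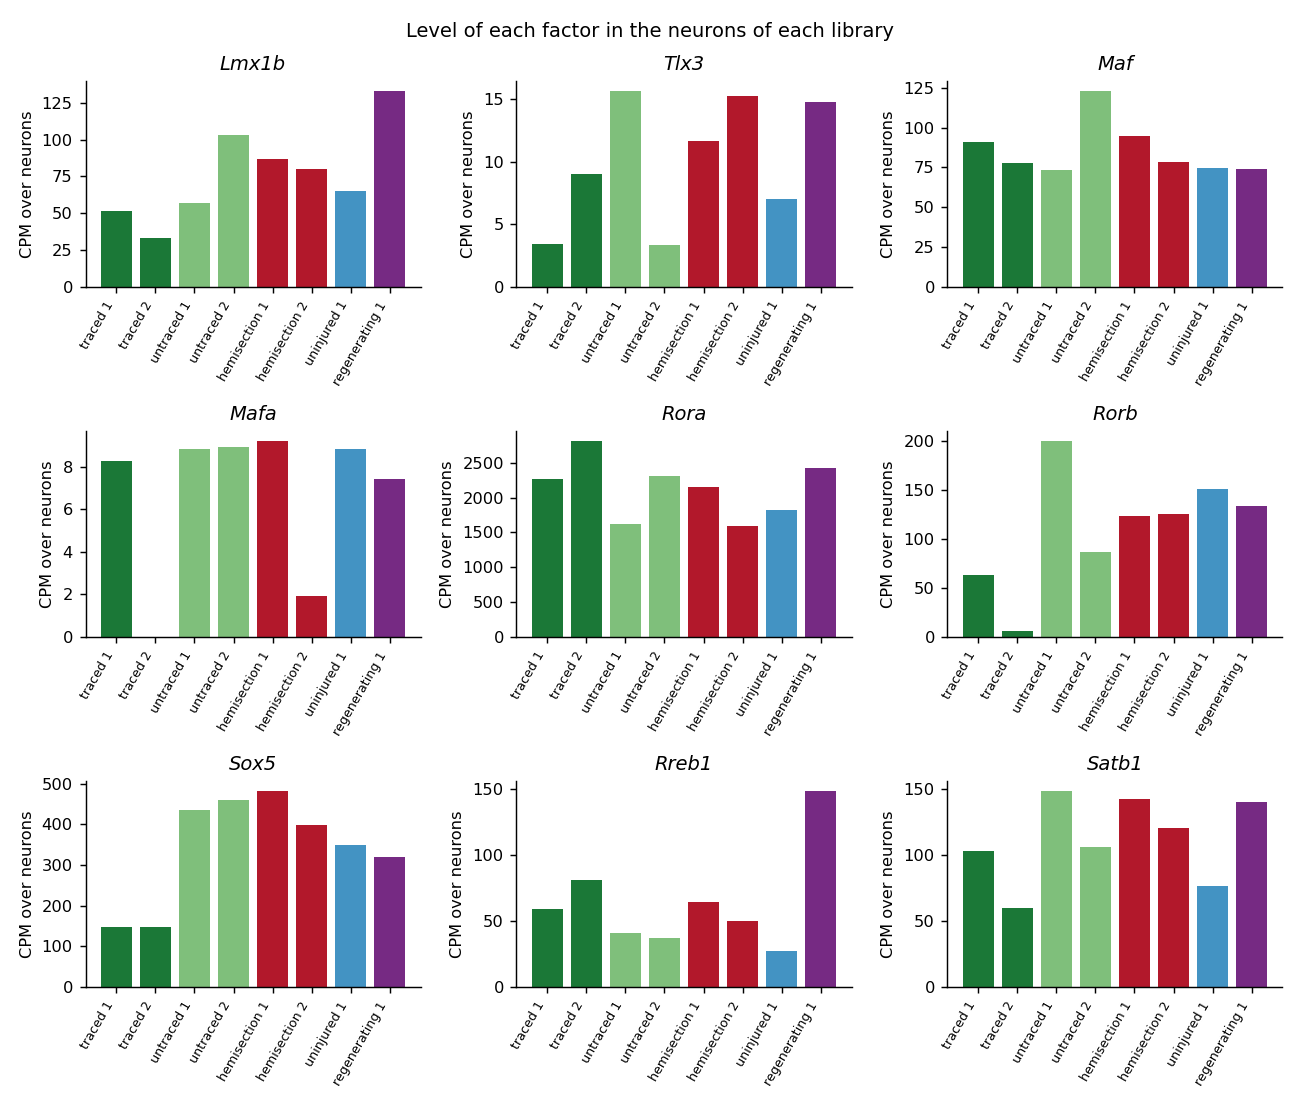
Bars give the CPM of each factor over all neurons of each of the 8 libraries, coloured by group. Sox5 was at 147 and 148 CPM in the traced libraries and at 318 CPM or more in all others, while Rreb1 was lowest, at 27.0 CPM, in the uninjured library of the second experiment.

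Of 18 partner factors of dorsal excitatory neurons, 14 were tested, and 2 of them rose while 2 fell. Meis2 (log2 fold change 1.61, adjusted p = 0.00778) and Zfhx3 (1.15, adjusted p = 0.0311) rose. Ebf2 (-1.78, adjusted p = 0.00158) and Ebf1 (-1.45, adjusted p = 0.00967), members of the early B-cell factor family, fell. Of 16 glutamatergic output genes 1 of 14 tested was called, Nmu, the gene of neuromedin U, at -3.26 (adjusted p = 0.00409). Of 15 dorsal inhibitory factors 1 of 7 tested was called, Sall3 at -3.34 (adjusted p = 0.00672). Of 12 close relatives of the members 4 were tested, and the smallest unadjusted p was 0.0606, for Sox6. The mix of families differed between the groups. DI neurons made up 3.75% and 4% of traced and 20.3% and 26.0% of untraced neurons. Neurons of the VEP family made up 38.8% and 24% of traced and 7.34% and 4.88% of untraced neurons. The part of this mix in these calls was not tested.

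Rreb1 was the only member called between hemisection and uninjured neurons, and it was higher after hemisection. It stood at 63.9 and 49.7 CPM in hemisection libraries 1 and 2 and at 27.0 CPM in the uninjured library. The log2 fold change was 1.21 (SE 0.262, adjusted p = 0.0122). Of all genes 645 were called, or 5.56% (0.948% higher and 4.61% lower), and 1 of 9 members was. The median log2 fold change was 0.45 over the members and 0.027 over all genes. Markers of oligodendrocytes, 5 genes of myelin, summed to 67.1 and 148 CPM in hemisection neurons and to 649 CPM in uninjured neurons, with none at 0. Markers of microglia, the class highest in Rreb1, summed to 114 and 178 CPM and to 191 CPM. Their part in the result was not tested.

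The call of Rreb1 depended on 1 subtype, on the reference and on 1 library. DE_Rreb1_Zim1 held 49 of 1000 and 4 of 108 hemisection neurons and 28 of 2148 uninjured neurons. Outside it, Rreb1 stood at 34.5 and 35.7 CPM after hemisection and at 25.7 CPM in the uninjured library. Without this subtype, also left out after seeing the data, the log2 fold change was 0.55 (adjusted p = 0.331). Against the untraced libraries, also uninjured, it was 0.59 (adjusted p = 1.00), and without hemisection replicate 1 it was 1.03 (adjusted p = 0.260). DESeq2 gave 1.13 (adjusted p = 0.181). The untraced libraries are nuclei without GFP from experiment 1, so against them experiment and sorting cannot be told apart from hemisection. The adjusted p of Rreb1 ran from 2.98e-05 to 1.00 over its alternatives.

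**Figure D4:**
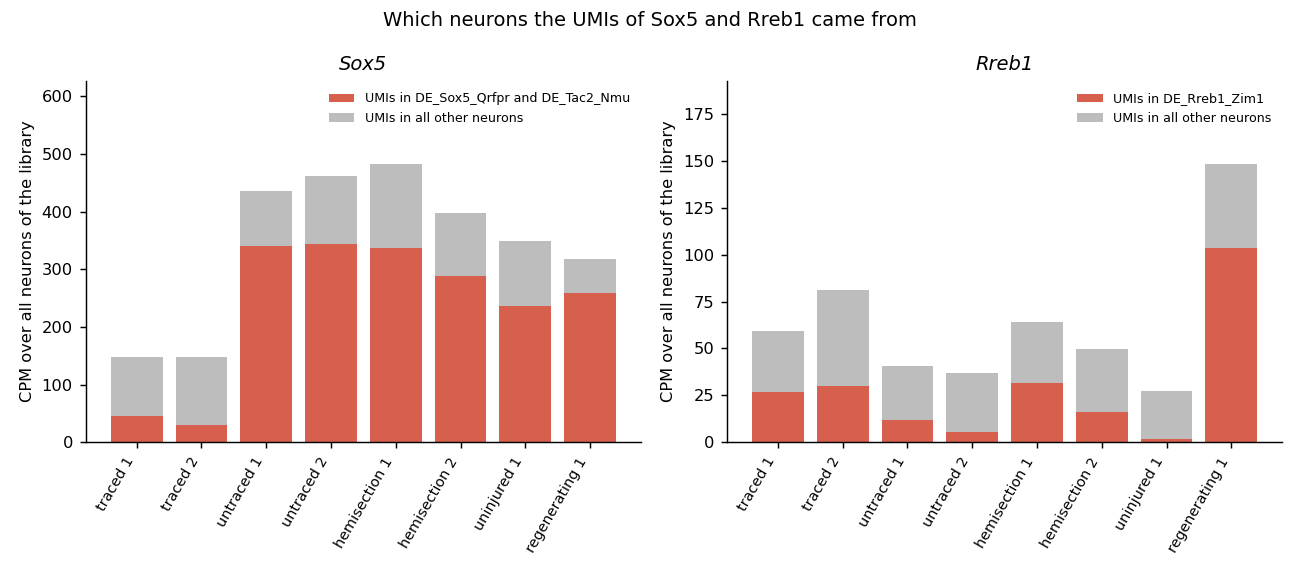
Stacked bars split the CPM of Sox5 and Rreb1 over all neurons of a library into UMIs from the subtypes highest in them (red) and from all other neurons (grey). The red part of Sox5 was 44.8 and 30.0 CPM in traced and 341 and 343 CPM in untraced libraries, and that of Rreb1 was 1.74 CPM in the uninjured library.

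Satb1 stood at 142 and 120 CPM after hemisection and at 76.4 CPM uninjured (log2 fold change 0.90, SE 0.270, adjusted p = 0.0660), without overlap. It passed the threshold in 3 of its alternatives, and its adjusted p ran from 0.000147 to 1.00. Against the untraced libraries its log2 fold change was 0.052. Lmx1b, at 87.2 and 80.3 against 64.8 CPM, Tlx3, at 11.7 and 15.3 against 7.04 CPM, and Sox5, at 482 and 398 against 350 CPM, were higher in both hemisection libraries without passing the test. DE neurons made up 53.3% and 58.3% of hemisection neurons and 42.4% of uninjured ones.

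Within DE neurons alone, 1 of 9 members was called, against 2.73% of 8692 genes (0.23% higher and 2.5% lower). Rreb1 stood at 106 and 81.1 CPM after hemisection and at 38.6 CPM uninjured (log2 fold change 1.33, SE 0.279, adjusted p = 0.0245). This call was lost when either hemisection library was left out (adjusted p = 0.279 and 0.0647), with DESeq2 and with untraced libraries as reference (adjusted p = 1.00 each), and without DE_Rreb1_Zim1 (log2 fold change 0.47, adjusted p = 0.681). Its adjusted p ran from 0.000512 to 1.00. Lmx1b stood at 166 and 164 against 171 CPM (log2 fold change -0.036, adjusted p = 0.999) and Sox5 at 797 and 674 against 777 CPM (-0.059, adjusted p = 0.979). These p-values do not show that the levels were equal. Satb1 stood at 231 and 227 against 150 CPM (0.63, adjusted p = 0.385), without overlap, and Maf at 156 and 99.9 against 104 CPM (0.38, adjusted p = 0.745), with overlap.

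Within DI neurons 5 members were tested and 0 called, where 3.15% of all genes were called (0.217% higher and 2.93% lower). At an unadjusted p under 0.05, edgeR and DESeq2 each counted 0 of the 5, and 1090 and 198 of all 8768 genes. Rorb stood at 418 and 213 CPM after hemisection and at 494 CPM uninjured (log2 fold change -0.58, adjusted p = 0.753). The difference of the hemisection effect between DE and DI neurons was tested as an interaction, which called 0.0879% of 11371 genes (0.0352% higher and 0.0528% lower) and 0 of 9 members. At an unadjusted p under 0.05 edgeR counted 2 members, Maf and Mafa, and 278 of all genes, and DESeq2 was not run for this difference. Mafa rested on few counts, with 0 UMIs in DI neurons of both hemisection and both untraced libraries and 16 in the uninjured library.

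**Figure D5:**
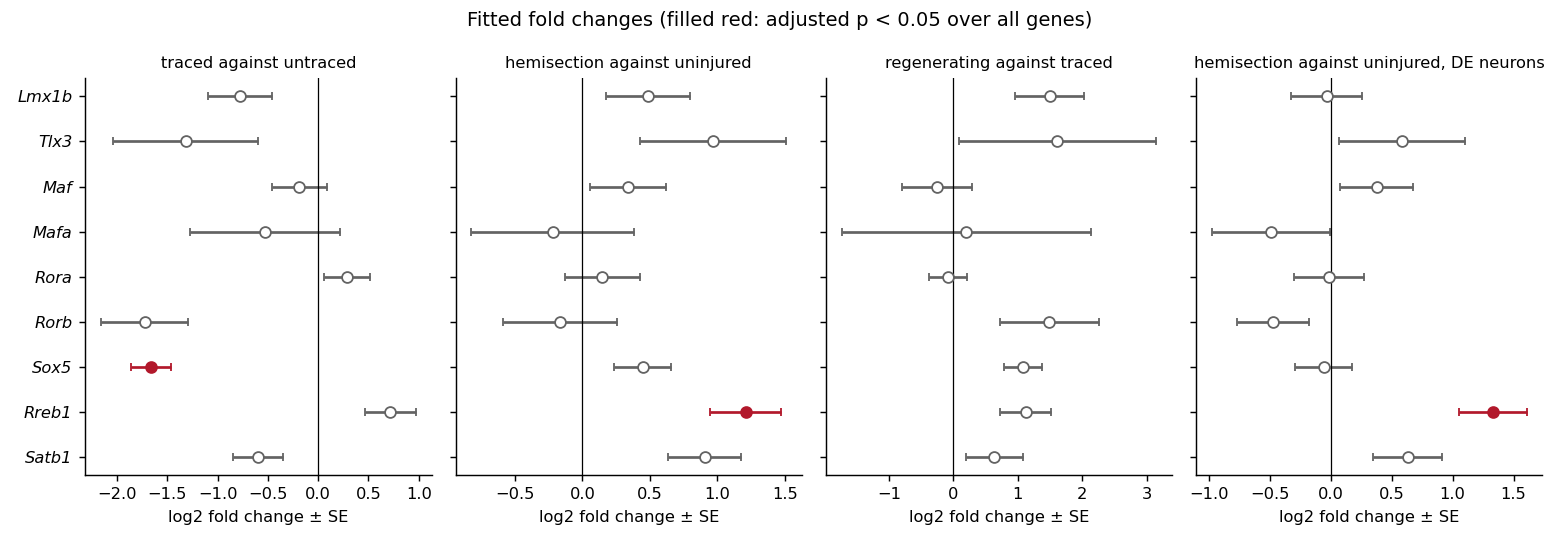
Points give the fitted log2 fold change of each factor with its standard error (lines) in 4 comparisons; filled red points passed an adjusted p of 0.05. Sox5 at -1.66 in traced neurons and Rreb1 at 1.21 in hemisection neurons and 1.33 in hemisection DE neurons were called.

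Few of the other factors were called. Of 14 partner factors tested in all neurons, Zfhx4 rose (log2 fold change 0.82, adjusted p = 0.0385) and Prdm8 fell (-1.89, adjusted p = 0.0217). Of 14 glutamatergic output genes 5 were called lower and 0 higher than in the 1 uninjured library. They were the neuropeptide genes Tac1 (-2.26, adjusted p = 0.00037), Tac2 (-2.16, adjusted p = 0.0067), Cck (-1.88, adjusted p = 0.00152), Sst (-2.25, adjusted p = 2.35e-05) and Grp (-1.36, adjusted p = 0.035). The same 5 genes were called lower in DE neurons. Genes of this list and neuronal markers were also lower in microglia and oligodendrocytes after hemisection, as given below. With the untraced libraries as reference far fewer of all genes were called in neurons. Alternatives for these 5 genes are not given here. In DI neurons 2 of 7 tested were called lower, Tac1 (-3.71, adjusted p = 0.00239) and Sst (-2.97, adjusted p = 0.00254). In the test of the difference between DE and DI, the partner factor Zfhx3 (1.53, adjusted p = 0.0252) and the inhibitory factor Sall3 (-4.16, adjusted p = 0.0110) were called.

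In the comparison of regenerating with traced neurons, 0 of 9 members and 0.276% of all genes were called (0.215% higher and 0.0603% lower). At an unadjusted p under 0.05 edgeR counted 3 members, Sox5, Rreb1 and Lmx1b, and 1709 of all 11601 genes. DESeq2 called 0 members and counted 3 of them and 986 of all genes at that threshold. The regenerating library is 1 shallow library of another experiment, so experiment and group cannot be told apart, and the median over all genes lay at -0.28. Sox5 stood at 318 CPM from 43 UMIs (log2 fold change 1.08, SE 0.293, adjusted p = 0.156). Lmx1b stood at 133 CPM (1.49, SE 0.532, adjusted p = 0.233) and Rreb1 at 148 CPM from 20 UMIs (1.13, SE 0.395, adjusted p = 0.228). Both were the highest values of the 8 libraries. Of the 18 Lmx1b UMIs, 11 came from 25 DE_Tac2_Nmu neurons, and 14 of the 20 Rreb1 UMIs came from 9 DE_Rreb1_Zim1 neurons. DE_Sox5_Qrfpr and DE_Tac2_Nmu held 42 of the 238 regenerating neurons, and 3 of 80 and 2 of 25 traced ones. This comparison and that of traced with untraced neurons share the traced libraries. Of the pathway lists, Ebf2 (2.01, adjusted p = 0.00971) and Nmu (4.31, adjusted p = 0.0103) were called, both higher.

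In the non-neuronal classes every nucleus of the uninjured library is among those without a barcode sequence, and the part of this in the following results was not tested. In microglia 3 of 6 tested members were called lower after hemisection, where 20.3% of 8283 genes were called (7.34% higher and 13% lower). Satb1 (log2 fold change -3.07, adjusted p = 6.28e-05), Sox5 (-2.49, adjusted p = 0.0118) and Rora (-1.59, adjusted p = 0.00392) were lower than in the uninjured library. The uninjured microglia held 95 Satb1 UMIs, or 93.2 CPM, against 0 and 15 UMIs, or 0 and 12.01 CPM, in the hemisection libraries. Satb1 was still called when either hemisection library was left out (adjusted p = 0.000294 without replicate 1 and 0.0395 without replicate 2), but not with DESeq2 (adjusted p = 0.178). The 3 neuronal markers Snap25, Rbfox3 and Syt1, which microglia lack, summed to 806 CPM in uninjured microglia and to 109 and 32.8 CPM in hemisection microglia. Of 7 glutamatergic output genes tested in microglia 6 were called lower too. The part of neuronal RNA in these differences was not tested. DESeq2 called 0 of the 6 members tested, and without hemisection replicate 2 Sox5 (adjusted p = 0.723) and Rora (adjusted p = 0.296) were not called. Rreb1, which was higher in microglia than in any other class, was not called at 0.32, nor was Maf at -0.44.

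In oligodendrocytes 1 of 7 tested members was called, against 7.61% of 11924 genes (2.83% higher and 4.77% lower). Rora stood at 193 and 146 CPM after hemisection and at 411 CPM uninjured (log2 fold change -1.28, adjusted p = 0.00267), and without hemisection replicate 2 it was not called (-1.06, adjusted p = 0.182). The neuronal markers summed to 90.3 and 40.1 CPM against 570 CPM there, and 8 of 12 glutamatergic output genes were called lower. Their part was not tested. Astrocytes were not tested, since the hemisection libraries held 6 and 7 of them.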

How the data were processed

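The authors deposited 1 matrix of UMI counts, with no normalization, and an annotation that gives each nucleus its library, class and subtype, used here as deposited. Tools named in the submitters' processing notes are Seurat 3 and Cell Ranger 4.0.0, and the builds are mm10 and GRCm38. The sources used here do not say how nuclei were filtered, doublets handled or clusters made. All deposited nuclei were kept, and doublets were not called. Counts were summed per library and class or family and tested with edgeR 4.0.16 in R 4.3.3 (TMM, filterByExpr with a minimum count of 10, glmQLFit, glmQLFTest), with all libraries of at least 20 nuclei in 1 fit (all 8 for neurons) and a coefficient per group. A group of 1 library was assumed to vary like the others. Adjusted p-values are Benjamini-Hochberg over all genes tested, called under 0.05. Where no tool is named, they come from this test. Standard errors follow from the F statistic. DESeq2 1.42.0, other scalings and left-out libraries were alternatives. Titles give traced and untraced fractions of a replicate the same number, which pairs them. Their deviations correlated with r = 0.15 over 9841 genes. The test was run on simulated data first. Named genes are the 9 members, the called genes of 4 lists (at most 4 by smallest p, otherwise the 3 smallest p) and the 3 genes most like each member. Of the glutamatergic output genes, the fifth called after hemisection is named as well. The members and lists were chosen with earlier results of these data known. Coordinates come from GENCODE (GRCm38). Depth is in the report. The 1 other annotation column was not used. Some subtypes are not reported by name.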

Additional observations from a re-analysis of the deposited data

Results flagged for a closer look

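In all, 10 differences were flagged because both hemisection libraries lay on one side of the uninjured library in neurons and on the other side in a non-neuronal class. The difference between classes was not tested in any of them. Values are the log2 change of CPM + 1 in neurons minus that in the other class. Against microglia this was 4.52 for Satb1, 3.15 for Tlx3, 2.86 for Lmx1b, 1.75 for Sox5 and 0.78 for Maf. Against oligodendrocytes it was 3.23 for Tlx3, 2.69 for Lmx1b, 1.62 for Rreb1, 1.58 for Sox5 and 1.17 for Maf. In each case the factor was higher in hemisection neurons and lower in the other class. Tlx3 and Lmx1b rested on few counts in uninjured microglia, with 8 and 7 UMIs. Hemisection library 1 held 32 microglia and 62 oligodendrocytes, where 3 UMIs equal 36.2 and 18.1 CPM. The uninjured levels of Tlx3 and Lmx1b in both classes, and of Maf and Rreb1 in oligodendrocytes, lay below these values. Library 1 was thus too shallow to resolve a lower level of them. Maf in oligodendrocytes had 0 UMIs in library 1, but 16.04 CPM in hemisection library 2 against 16.53 CPM uninjured. Neuronal markers were also lower in both classes after hemisection, as given in the report.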

How the results depend on the processing

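Over the 9 factors, all comparisons and all alternatives, 421 of 483 values kept their direction and their side of the threshold, 16 lost a call, 13 gained one and 33 changed direction. Counts of genes called, and of members called among them, moved as follows, and the cause was not tested.

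Between traced and untraced neurons, no filter on low counts gave 234 genes and 2 members, thinning 27 and 2, DE neurons only 16 genes, and leaving out 1 library 23 to 93 genes and 1 to 2 members. In a fit of the 4 libraries of experiment 1 alone it was 159 genes and 2 members with the replicate number as a block, which pairs traced with untraced libraries, and 33 genes and 1 member without the replicate block. Without DE_Sox5_Qrfpr and DE_Tac2_Nmu 0 members were called (edgeR). Between hemisection and uninjured neurons, DESeq2 gave 137 genes and 0 members, no filter 1101 and 2, experiment 2 alone 2384 and 2, untraced libraries as reference 22 and 0, thinning 313 and 2, and leaving out 1 library 171 to 330 genes and 0 to 1 members, and without DE_Rreb1_Zim1 0 members were called. Between regenerating and traced neurons, no filter gave 185 genes, DE neurons only 8, and leaving out 1 library 0 to 28. In DE neurons after hemisection, DESeq2 gave 15, library size alone 148, no filter 556, untraced libraries 5 and leaving out 1 library 125 to 151 genes. Members called were 0 with DESeq2, untraced libraries, without DE_Rreb1_Zim1 and with either hemisection library left out. In DI neurons DESeq2 gave 18, untraced libraries 4 and leaving out 1 library 101 to 244 genes. In microglia DESeq2 gave 324 genes and 0 members, and leaving out 1 library 411 to 1840 genes and 1 to 4 members. In oligodendrocytes DESeq2 gave 252 genes, no filter 2 members, and leaving out 1 library 106 to 788 genes and 0 to 1 members.

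Log2 fold changes that changed direction were these. Between traced and untraced neurons, Maf was 0.63 in DE neurons only, and with 1 library left out Tlx3 ran from -1.76 to 0.38 and Maf from -0.61 to 0.23. After hemisection with untraced libraries as reference, Maf was -0.098, Rora -0.058 and Sox5 -0.0076, and with 1 library left out Mafa was 0.15 and Rora ran from -0.045 to 0.32. Between regenerating and traced, DE neurons only gave -0.18 for Mafa, 0.0033 for Rora and -0.39 for Satb1, and with 1 library left out Mafa was -0.25 and Rora ran from -0.20 to 0.0054. In DE neurons, Lmx1b was 0.018 with no filter, 0.042 with untraced libraries, 0.11 when thinned and -0.0094 to 0.011 with 1 library left out. Maf was -0.18 with untraced libraries. Rora was 0.043 with no filter, 0.044 without DE_Rreb1_Zim1 and -0.31 to 0.28 with 1 library left out, and Sox5 0.080 and -0.14 to 0.073 under the last pair. In DI neurons with untraced libraries Maf was 0.15, Rora -0.19 and Sox5 0.31, and with 1 library left out they ran from -0.44 to 0.18, -0.11 to 0.23 and -1.16 to 0.15. In oligodendrocytes Satb1 was 0.042 with DESeq2, and with 1 library left out Satb1 ran from -0.19 to 0.48, Maf from -9.11 to 0.12 and Rorb from -1.97 to 0.060. Traced neurons, 80 and 25, and the 488 UMIs of the median regenerating neuron limit these comparisons.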
